A study of Drosophila melanogaster with 3 samples.

Results

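The genes described here copy DNA and drive cell division, and they were measured in wild-type *Drosophila melanogaster* embryos wounded with a laser and in unwounded embryos. The members are 60 named genes of DNA replication and the cell cycle, taken as every probe that the platform annotation assigns to exactly 1 of them. Of the 60 genes, 40 were measured, on 65 probes, out of 8247 genes measured in all. The other 20 were not analysed here: *plu*, *Orc6*, *geminin*, *Mcm7*, *RnrS*, *CycA*, *Cdk1*, *stg*, *Myt1*, *Wee1*, *dap*, *polo*, *aurA*, *BubR1*, *asp*, *cnn*, *pav*, *sti*, *Top2* and *tll1*. The name *tll1* matched no current symbol or synonym.

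The study comprised 3 arrays, A, B and C, each with 2 colours. On every array the unwounded embryos were labelled with Cy3 and the wounded embryos with Cy5. No array exchanged the dyes, so a dye effect that repeats on all 3 arrays cannot be told apart from wounding. All embryos were wild type, and the labels give no age, time after wounding or number of embryos. Whether each array used its own batch of embryos is not stated, so a p-value reflects array-to-array spread that may be technical only.

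Early fly embryos divide on maternal RNA and protein, in fast cycles that alternate DNA synthesis and mitosis with no gap between them. Later cycles need transcription of the embryo's own genes, and most epidermal cells then stop dividing while neuroblasts continue and several tissues copy their DNA without dividing. Replication starts where the origin recognition complex binds and loads the MCM helicase. Cyclins with their kinases time entry into S phase and mitosis, and the anaphase-promoting complex ends mitosis by marking its targets for destruction.

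Each value is a log2 ratio of the 2 colours, averaged over the probes of a gene. A positive value is called a high ratio. Which colour is the numerator is not settled: wounded precedes unwounded in the title of the series, and Cy5 is usually the numerator, but the title of every array has the reverse order. High and low ratio are therefore not read as higher or lower in wounded embryos. Errors are SD over 3 arrays, and where 3 values follow each other they stand for A, B and C in that order. A gene passed the test at a limma p of 0.05 after Benjamini-Hochberg adjustment over all 8247 genes. RNA came from whole embryos, so fewer cells of a type and less RNA per cell cannot be told apart.

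Of the 40 measured genes, *gnu* and *Dna2* had a low ratio past the threshold and none had a high ratio. That is 5% with a low ratio, against 1.47% of all genes, and 0 with a high ratio, against 0.497% of all genes. At an unadjusted p under 0.05, limma placed 6 of the 40 low (9.65% of all genes) and 0 high (8.75% of all genes). The 6 were *gnu*, *Dna2*, *PCNA*, *Orc1*, *CycD* and *aurB*. Means below 0 were found for 27 of 40 genes, or 67.5%, against 50.1% of all genes. The ratio lay below 0 on all 3 arrays for 12 members and above 0 on all 3 for 3 members. Over all genes these shares were 20.8% and 20.7%.

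The median of the 40 gene means was −0.04 on the log2 scale, against −0.00017 over all genes, with an interquartile range of −0.12 to 0.03. Without *gnu* and *Dna2* the median of the other 38 members was −0.03. Array by array, the member median was −0.05, 0.03 and −0.09, so array B lay on the other side of 0. The members' median stayed below 0 when any 1 array was left out, though it came close to 0 without array C (−0.0026). The interquartile range of all genes was −0.08 to 0.08. The median size of a member mean, sign left aside, was 0.07, against 0.08 over all genes. Apart from *gnu* and *Dna2* the members lay between −0.26 and 0.28.

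**Figure D1:**
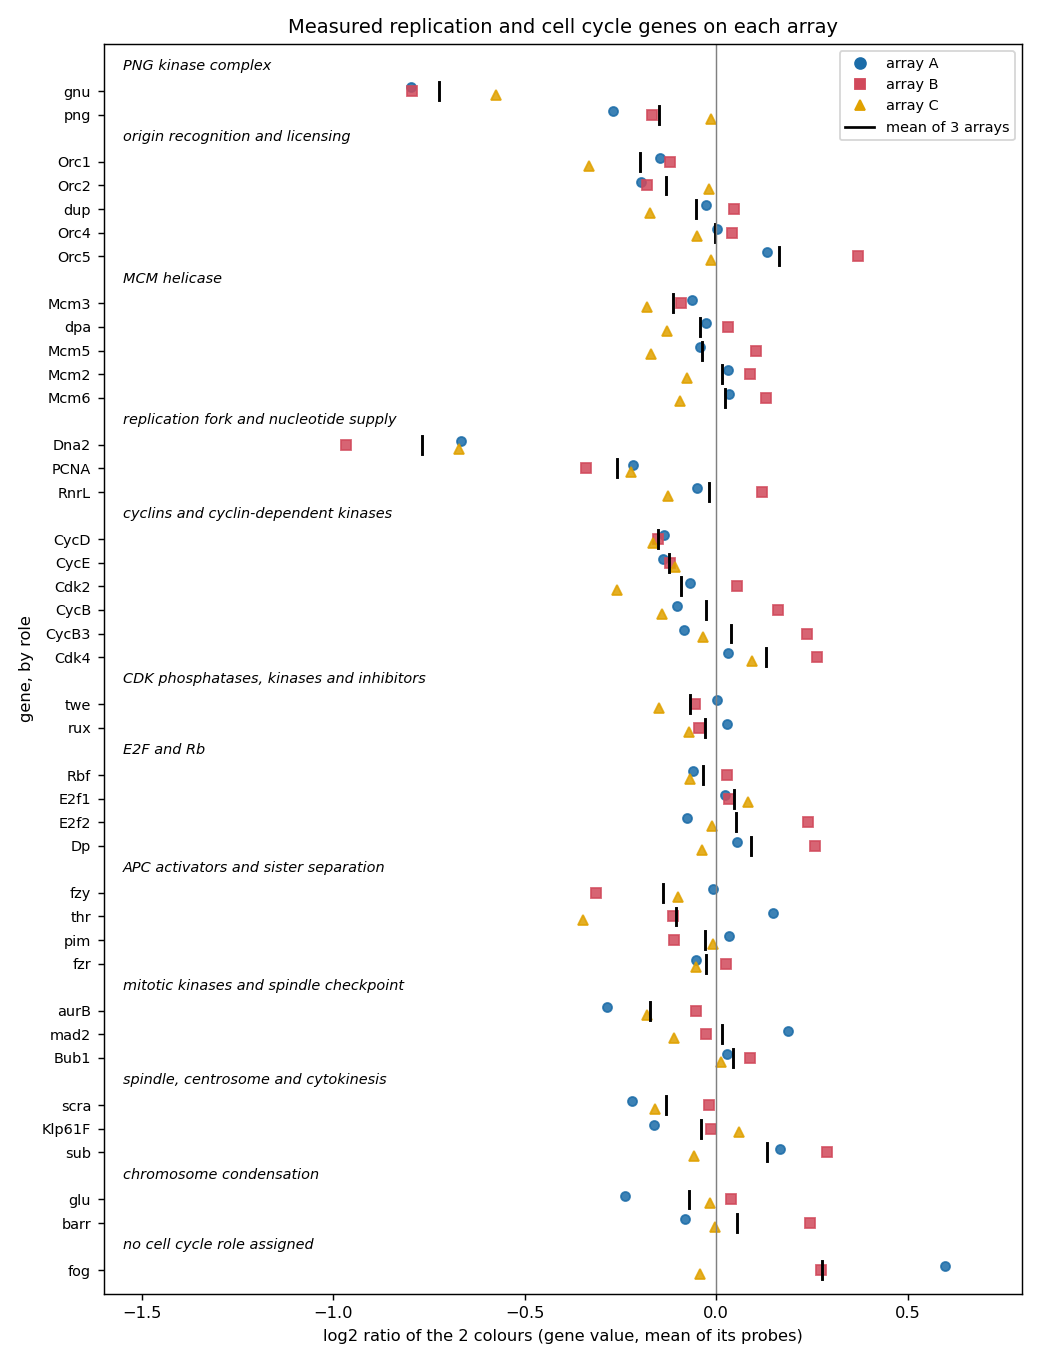
Log2 ratio of the 40 measured genes on array A (circles), array B (squares) and array C (triangles), ordered by role, with the mean of 3 arrays as a black bar. *gnu* and *Dna2* lie left of −0.5 on every array, while most other genes lie within 0.3 of 0 and many have array B to the right of arrays A and C.

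**Figure D2:**
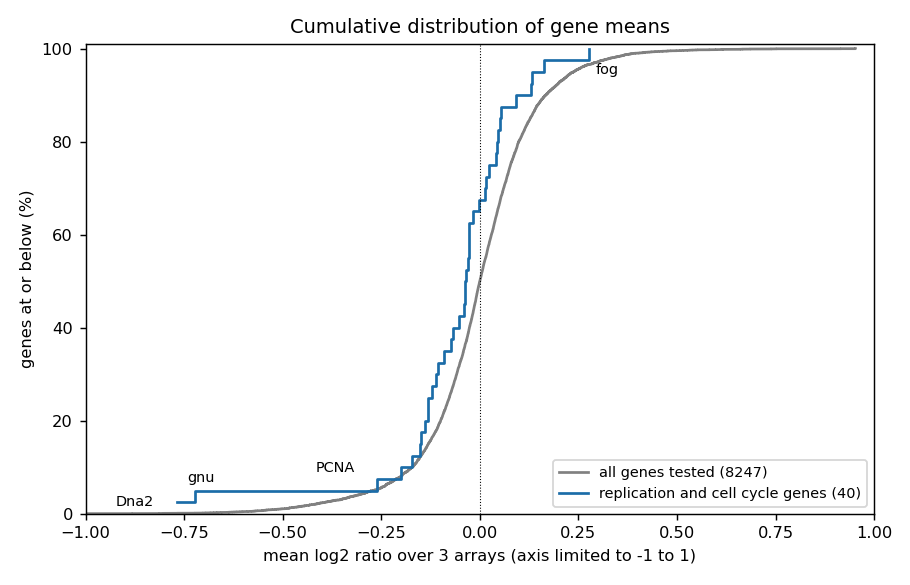
Cumulative share of genes (vertical axis, %) at or below each mean log2 ratio (horizontal axis) for the 40 members and for all 8247 genes tested. The member curve crosses 0 at 67.5% and the curve of all genes at 50.1%, and *gnu* and *Dna2* form a separate step at the low end.

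The PNG kinase complex lets the embryo translate maternal mRNAs, Cyclin B mRNA among them, at egg activation. Its activating subunit, *gnu* (giant nuclei), had log2 ratios of −0.80, −0.80 and −0.58. The mean was −0.72 ± 0.13 (SD, n = 3), a ratio of 0.606 (limma adjusted p = 0.0359), and 0.133% of all genes lay lower. All 3 arrays were low, with array C the least so. The kinase subunit itself, *png*, had −0.27, −0.17 and −0.01. Its mean of −0.15 ± 0.13 (SD, n = 3) did not pass (limma adjusted p = 0.321). Arrays A and B were low for *png* and array C was close to 0.

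*Dna2*, the helicase and nuclease that trims flaps of Okazaki fragments, had the lowest value of the 40 genes. Its log2 ratios were −0.67, −0.97 and −0.67. The mean was −0.77 ± 0.17 (SD, n = 3), a ratio of 0.587 (limma adjusted p = 0.0359), and 0.109% of all genes lay lower. Each array was low, array B the most.

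*gnu* and *Dna2* were each measured by 1 clone, LD12084 and LD18775, so no other probe repeats their value. Leaving out array A, B or C ended both calls (limma adjusted p for *gnu* 0.167, 0.0801 and 0.0518, and for *Dna2* 0.167, 0.0801 and 0.0564). The mean stayed between −0.69 and −0.80 for *gnu* and between −0.67 and −0.82 for *Dna2* in these fits. Both calls also ended on the linear ratio (limma adjusted p = 0.0529) and with each clone library centred (0.0519), with means of −0.72 and −0.71 for *gnu* and −0.76 and −0.76 for *Dna2*. In each of these 5 fits limma called 0 of all 8247 genes, with 877 to 1663 genes at an unadjusted p under 0.05.

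*PCNA*, the sliding clamp that holds DNA polymerase on its template, came next. Its gene value was −0.22, −0.34 and −0.22, with a mean of −0.26 ± 0.07 (SD, n = 3). The adjusted p was 0.0915 in limma, which did not pass at 0.05. Both *PCNA* probes were low on all 3 arrays, at −0.33 ± 0.16 for clone LD45889 and −0.19 ± 0.04 for probe Duke_22 (SD, n = 3). *RnrL*, the large subunit of ribonucleotide reductase, which makes deoxyribonucleotides, had −0.05, 0.12 and −0.12. Array B had the opposite sign for *RnrL*, and the mean was −0.02 ± 0.13 (SD, n = 3; limma adjusted p = 0.917). Of 128 control spots that carry plant gene names, 119 had a value on all 3 arrays. Their median was −0.23, and −0.35, −0.22 and −0.16 array by array. Their pooled median is close to the mean of *PCNA*, and their lowest array was A. The 32 control spots named as fly genomic had a median of −0.19, and −0.07, −0.45 and −0.07 array by array. Array B was the lowest both for the fly genomic spots and for *PCNA*. Signal over background is unknown, and the part of such an offset in the values of *PCNA* or other members was not tested.

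In the origin recognition complex, 0 of 4 measured subunits passed. *Orc1*, its largest subunit, had −0.15, −0.12 and −0.33, a mean of −0.20 ± 0.11 (SD, n = 3; limma adjusted p = 0.192). *Orc2* had −0.20, −0.18 and −0.02, with a mean of −0.13 ± 0.10 (SD, n = 3; limma adjusted p = 0.332). Both genes were low on all 3 arrays. *Orc4* averaged −0.0032, and *Orc5* had 0.13, 0.37 and −0.01, the highest mean of the complex at 0.16 ± 0.19 (SD, n = 3; limma adjusted p = 0.373). Its SD was larger than its mean. *dup*, the fly Cdt1, which loads MCM on the origins, averaged −0.05 ± 0.11 (SD, n = 3).

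The MCM proteins form the ring helicase that opens DNA at the fork. None of the 5 measured subunits passed, and their means spanned −0.11 to 0.02. *Mcm3* was the lowest at −0.06, −0.09 and −0.18, a mean of −0.11 ± 0.06 (SD, n = 3; limma adjusted p = 0.360). *Mcm6* was the highest at 0.03, 0.13 and −0.09, a mean of 0.02 ± 0.11 (SD, n = 3; limma adjusted p = 0.884). The other subunits, *dpa* (the fly Mcm4), *Mcm5* and *Mcm2*, averaged −0.04, −0.04 and 0.01. In all 5 subunits array C was the lowest array, and in 4 of 5 array B was the highest.

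Of 6 measured cyclins and cyclin-dependent kinases, 0 passed. *CycD*, the cyclin of growth control, had nearly the same value on each array, at −0.14, −0.15 and −0.16. Its mean was −0.15 ± 0.01 (SD, n = 3), and limma, which pools variances over genes, gave an adjusted p of 0.218. *CycE*, which starts S phase, had a gene value as even, at −0.14, −0.12 and −0.11 (mean −0.12 ± 0.015, SD, n = 3; limma adjusted p = 0.297). Its 3 probes were less even. Duke_17 had −0.06, −0.13 and 0.05, clone LD17578 −0.24, −0.13 and −0.21, and clone LD22682 −0.12, −0.10 and −0.16. The partner of *CycE*, *Cdk2*, averaged −0.09 ± 0.16 (SD, n = 3). *Cdk4*, the partner of *CycD*, went the other way, with 0.03, 0.26 and 0.09 and a mean of 0.13 ± 0.12 (SD, n = 3; limma adjusted p = 0.370). It was above 0 on all 3 arrays. The mitotic cyclins *CycB* and *CycB3* averaged −0.03 and 0.04, and both were above 0 on array B and below 0 on arrays A and C.

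Only *twe* and *rux* were measured among the regulators of Cdk1. *twe*, a Cdc25 phosphatase of meiosis and the early embryo, averaged −0.07 ± 0.08, and *rux*, an inhibitor of Cyclin A with its kinase, averaged −0.03 ± 0.05 (SD, n = 3). The main zygotic Cdc25, *stg*, was not analysed here.

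The E2F factors turn on S-phase genes and are held back by Rb proteins. *E2f1*, the activating factor, had a gene value above 0 on all 3 arrays (0.02, 0.03 and 0.08). Its mean was 0.05 ± 0.03 (SD, n = 3; limma adjusted p = 0.691). Its 4 probes were less even. Clone LD23243 had −0.07, 0.09 and −0.02, and clone LP10386 −0.05, −0.07 and 0.22. Probe Duke_13 and clone GH16721, with means of 0.06 and 0.10, were above 0 on all 3 arrays. *Dp*, the partner of both E2F factors, had the highest mean of the 4 genes, at 0.09 ± 0.15 (SD, n = 3; limma adjusted p = 0.566). The repressive factor *E2f2* averaged 0.05 and *Rbf*, the fly Rb protein, −0.03. None of the 4 passed.

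All 4 measured genes of mitotic exit had means below 0 and none passed. *fzy*, the fly Cdc20, which activates the anaphase-promoting complex in mitosis, had −0.01, −0.31 and −0.10, a mean of −0.14 ± 0.16 (SD, n = 3; limma adjusted p = 0.389). Its value on array B came from clone LD44795, at −0.67 there, while clone RE39287 had 0.04. *fzr*, the Cdh1 that acts after mitosis and in endocycles, averaged −0.03 ± 0.05 (SD, n = 3), with clones at −0.08 and 0.03. *pim*, the fly securin, averaged −0.03 and *thr*, which works with separase, −0.11.

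*aurB*, the kinase of the chromosomal passenger complex, was low on each array, at −0.28, −0.05 and −0.18. Its mean of −0.17 ± 0.12 (SD, n = 3) did not pass (limma adjusted p = 0.254). The spindle checkpoint genes *mad2* and *Bub1* averaged 0.02 and 0.04, and *Bub1* was above 0 on all 3 arrays.

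Among genes of spindle and cytokinesis, *scra*, the fly anillin, averaged −0.13 ± 0.10 (SD, n = 3; limma adjusted p = 0.337). Its 2 clones gave unlike values: LD23793 was low on every array at −0.22 ± 0.05, while GH27072 had 0.20 on array B and a mean of −0.05 ± 0.24 (SD, n = 3). *Klp61F*, the kinesin that pushes spindle poles apart, averaged −0.04. *sub*, a kinesin of meiotic and mitotic spindles, was the highest of the 3 at 0.13 ± 0.18 (SD, n = 3; limma adjusted p = 0.440). The condensin genes *glu* and *barr* averaged −0.07 ± 0.15 and 0.05 ± 0.17 (SD, n = 3).

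*fog* encodes the secreted signal for cell shape change in gastrulation and has no known part in replication or division. It had the highest mean of the 40 genes, with 0.60, 0.27 and −0.04. The arrays differed more than for most members, and the mean of 0.28 ± 0.32 (SD, n = 3) did not pass (limma adjusted p = 0.305).

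A gene with several probes allows a check of its value. Of the 40 genes, 20 had 1 probe and 20 had more, with 4 at most for *E2f1*. In 14 of the 20 with more probes, all probe means had the same sign. In the fit of single probes, 2 of the 65 member probes passed, those of *gnu* and *Dna2* (limma adjusted p = 0.0441 for each). That is 3.08% low and 0 high, against 1.03% low and 0.513% high of all 11887 probes. The *dpa* clone RE04051 and its re-amplified spot averaged −0.06 ± 0.10 and 0.01 ± 0.11 (SD, n = 3).

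A set of 26 tested probes whose names begin with Duke held 16 probes of these members, 1 for each of 16 genes that also had a cDNA clone. The labels do not say what the Duke probes consist of. Across the 16 genes, the Duke probe and the clones of a gene correlated with Pearson r = 0.67 and Spearman rho = 0.69. The points share the same 3 arrays, and genes are not independent replicates. The Duke probe was the higher in 11 of 16 genes, and the sign was the same in 14. Over all 16 genes the median difference, Duke minus clones, was 0.06.

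The differences were largest in *Orc5* and *Orc2*. For *Orc5*, Duke_5 had 0.27, 0.56 and 0.04, while clone RE16687 had −0.01, 0.18 and −0.06. For *Orc2*, Duke_2 averaged −0.02 and clone GH13824 −0.24. For *Orc4*, Duke_4 averaged 0.07 and clone LD43280 −0.08. In these 3 genes, and in no other of the 16, the Duke probe lay above the clones on all 3 arrays. *Mcm3* had −0.02 on Duke_8 and −0.21 on clone LD07144, and *Orc1* −0.14 on Duke_1 and −0.26 on clone LD11626. Without the Duke probes, an alternative chosen after the data were seen, the number of members at an unadjusted p under 0.05 went from 6 to 9 (18.4% of all genes in both fits), and *gnu* and *Dna2* were still the members that passed. Which probe is nearer to the transcript level was not tested.

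**Figure D3:**
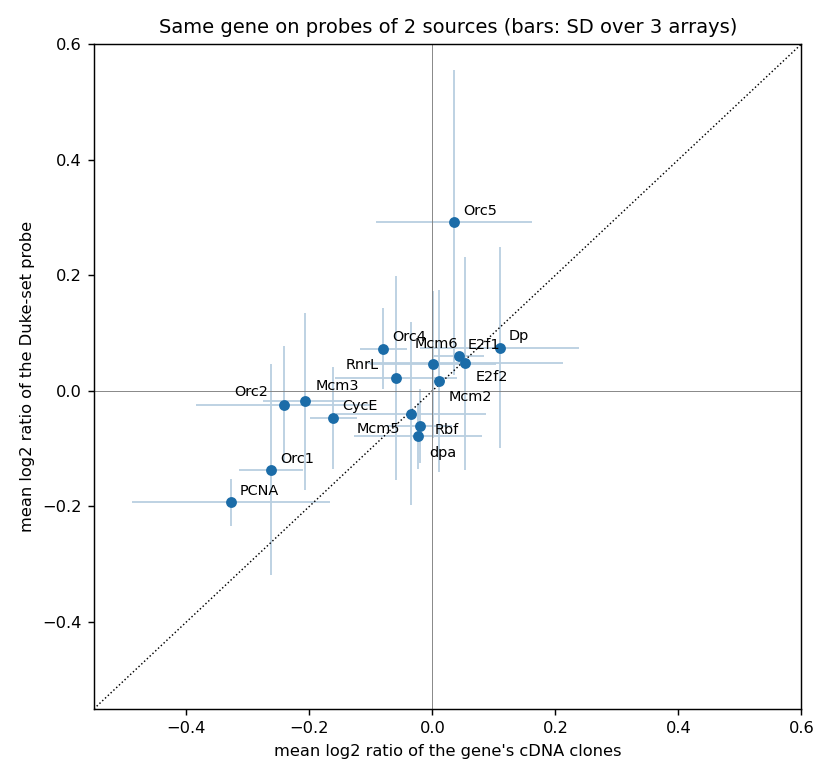
Mean log2 ratio of the Duke probe (vertical axis) against the mean of the cDNA clones (horizontal axis) for 16 member genes, with bars for the SD over 3 arrays and a dotted line where both are equal. *PCNA* and *Orc1* are low on both sources and lie above the line, as do *Orc5*, *Orc2*, *Mcm3* and *Orc4*, with *Orc5* the farthest.

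Arrays B and C lay apart in these genes, B toward high and C toward low ratios. The list of other mitosis genes described below had a like order, with medians of −0.03, 0.09 and −0.05. Other replication genes had medians of −0.04, −0.0065 and −0.09, and all genes −0.0037, 0.01 and −0.0072. In 12 of 40 members, or 30%, array B lay above 0 and arrays A and C below 0, against 13.6% of all genes. *CycB3*, *barr*, *CycB* and *E2f2* were the clearest, with array B higher than the mean of arrays A and C by 0.29, 0.29, 0.28 and 0.28. *Orc5* had a gap of 0.31, with array A above 0 as well. The opposite gap was found in *Dna2* (−0.30) and *fzy* (−0.26). Array B was the highest array in 57.5% of members and 40.3% of all genes, and array C was the lowest in 57.5% of members and 35.3% of all genes. Over the members without *gnu* and *Dna2*, Pearson r was 0.46 between arrays A and B, 0.12 between A and C and 0.41 between B and C, across 38 genes. With *gnu* and *Dna2* kept, r over the 40 members was 0.75 between A and B, 0.59 between A and C and 0.77 between B and C. Over all genes, with no gene left out, r was 0.36 between A and B, 0.50 between A and C and 0.21 between B and C. These shares and correlations are descriptions across genes, and the cause of the pattern was not tested.

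Other replication genes, from a list of 38 of which 32 were measured, also had more means below 0 than above. None passed in limma. At an unadjusted p under 0.05, 8 were low and 1 was high, against 9.65% and 8.75% of all genes. The median was −0.03, with 22 of 32 below 0, against 50.1% of all genes. The smallest p belonged to *RfC4* and *RfC38*, subunits of the complex that loads PCNA on DNA. *RfC4* had −0.20, −0.25 and −0.18, a mean of −0.21 ± 0.04 (SD, n = 3; limma adjusted p = 0.125). *RfC38* had −0.24, −0.18 and −0.14, a mean of −0.19 ± 0.05 (SD, n = 3; limma adjusted p = 0.157). Both were low on every array. The list also had genes on the other side of 0, the highest being the polymerase epsilon subunit gene *PolE4* at 0.18.

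Other mitosis genes, 59 of 72 measured, had a median of −0.0010 and 30 means below 0, against 50.1% of all genes. At an unadjusted p under 0.05, 4 were high and 6 low, against 8.75% and 9.65% of all genes. *Sas-6*, which builds the cartwheel of new centrioles, passed with a high ratio (0.497% of all genes), and none passed with a low ratio (1.47%). It had 0.40, 0.47 and 0.42, a mean of 0.43 ± 0.03 (SD, n = 3; limma adjusted p = 0.0359). Like the calls of *gnu* and *Dna2*, it was lost when any 1 array was left out, on the linear ratio and with clone libraries centred.

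Further lists described the cells that could carry these transcripts. Markers of neuroblasts, the dividing progenitors of neurons, had means above 0 in all 10 of 10 measured genes outside the members. Their median was 0.08, and over all genes 50.1% of means lay below 0. *CycE*, also named for this list, was counted with the members and was low on all 3 arrays, with a mean of −0.12. In limma 0 of the 10 passed (0 at an unadjusted p under 0.05, against 9.65% low and 8.75% high of all genes). By array, the list had medians of 0.05, 0.14 and 0.00055. In 4 of the 10 genes the ratio lay above 0 on all 3 arrays, against 20.7% of all genes. The 2 of smallest p were *klu* at 0.17 and *pros* at 0.12 (limma adjusted p = 0.277 and 0.353). Maternal transcript markers, which share their origin with *gnu* and *png*, had a median of −0.05 over 12 genes. None of them passed, with 1 low and 3 high at an unadjusted p under 0.05, against 9.65% and 8.75% of all genes. Their smallest p belonged to *BicC* at 0.43 and *exu* at −0.24, on opposite sides of 0 (limma adjusted p = 0.0577 and 0.101). Among 10 genes of differentiated epidermis the median was −0.04. The cuticle gene *Ccp84Aa* passed with a high ratio, as did 0.497% of all genes. Its mean log2 ratio was 0.46 ± 0.13 (SD, n = 3; limma adjusted p = 0.0436). That call was lost with centring, scaling, the linear ratio, centred clone libraries and any 1 array left out. At an unadjusted p under 0.05, 1 gene of this list was high and 2 were low, against 8.75% and 9.65% of all genes. The 2 low genes were the cuticle gene *Cpr64Aa* at −0.44 and *shg*, which encodes E-cadherin, at −0.39 (limma adjusted p = 0.0762 and 0.101). The part of these cell types in the values of *gnu* and *Dna2* was not tested.

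**Figure D4:**
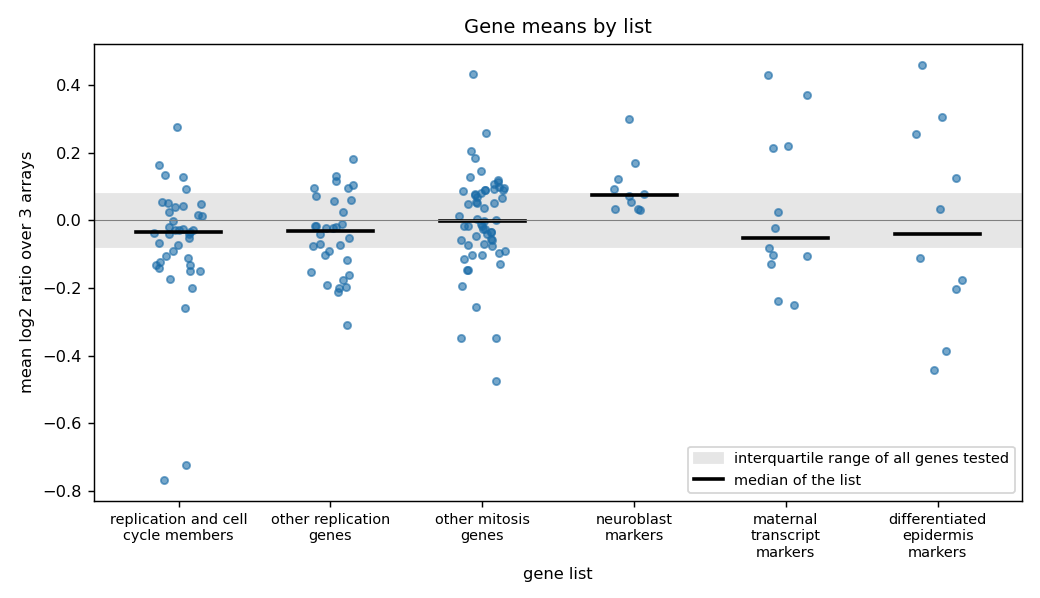
Mean log2 ratio over 3 arrays (vertical axis) of each measured gene in 6 gene lists (horizontal axis), with a black bar for the list median and a grey band for the interquartile range of all genes. The 2 members near −0.75 are *gnu* and *Dna2*. All 10 genes of the neuroblast list, from which the member *CycE* was left out, lie above 0.

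The cDNA libraries behind the probes are shown by the letters of a clone name. Of the member probes, 27 were LD clones, those of *gnu* and *Dna2* included, 16 Duke probes, 12 RE clones and 6 GH clones, with 4 others. The median of member probes was −0.08 for LD clones, where all 2805 LD clones had −0.0092. For RE clones it was −0.01, where all had 0.0024, and for GH clones −0.02, where all had −0.03. Array by array, all LD clones had medians of −0.04, 0.03 and −0.03. All 26 Duke probes, 16 of them member probes, had 0.03, 0.09 and −0.05. All RE clones had 0.01, −0.0043 and −0.0014, and all GH clones −0.03, −0.03 and −0.03. The part of the libraries in the differences between arrays was not tested. With each library of at least 30 probes centred on each array, the median of the members was −0.03. The 26 Duke probes were not centred.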

How the data were processed

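Total RNA of wounded and unwounded embryos was compared on 3 arrays with 2 colours each. Per the labels, RNA was taken up in Trizol, cleaned on RNeasy columns and labelled by amino-allyl reverse transcription. The deposited table held 1 negative value per probe and array (medians −1.001, −1.01 and −0.997), read as minus 1 times a linear ratio normalized to about 1 with a floor of 0.01, an inference from the values. The log2 ratio was computed from these deposited values. The labels name no scanner, background correction, normalization method or direction of the ratio. Signal over background is unknown, and precision is limited by the number of arrays.

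The 160 control spots were left out, and 11887 probes with a value on 3 arrays were tested. Of these, 9839 had 1 gene symbol, 620 several and 1428 none. Symbols of the old platform annotation were updated by Entrez identifier through the Release 6 plus ISO1 MT table (9746 of 9917 probes with 1 symbol matched). Gene means entered an intercept-only limma fit (limma 3.58.1, R 4.3.3), with p-values adjusted over all 8247 genes at 0.05. The prior SD was 0.113 with 3.67 prior degrees of freedom. With 3 arrays the smallest p of an exact sign-flip test is 0.25, so calls rest on variances shared across genes. There is 1 group, so pairing does not apply.

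The members, the lists and the tests were chosen with earlier results of these data known. Named genes are members past the threshold, members with an unadjusted p under 0.05 and 1 sign on 3 arrays, the highest and lowest of each role, and in other lists those past the threshold or the 2 of smallest p. Names outside this rule were added after their values were seen. The test was checked on simulated data.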

Additional observations from a re-analysis of the deposited data

How the results depend on the processing

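*gnu* and *Dna2*, the 2 members with a low ratio, both passed with arrays centred, scaled or quantile-normalized, with values on at least 2 arrays, robust moderation, array weights, the median of probes, probes with several symbols, clones averaged first, no Duke probes and an adjusted p of 0.10, which added *PCNA*. In limma 0 low members passed on the linear ratio and with clone libraries centred (6 of 40 members at an unadjusted p under 0.05 each time, against 18.3% of all genes), and 0 to 0 without 1 array (3, 6 and 7 members without A, B and C, against 10.6%, 20.2% and 15.4% of all genes). Low member probes behaved alike, with 0, 0 and 0 to 0. Of other mitosis genes, 2 passed with quantile normalization, 3 with array weights, 0 on the linear ratio, 0 with libraries centred and 0 to 0 without 1 array. Of epidermis markers, 0 passed with centring, scaling, the linear ratio or libraries centred, 2 with array weights and 0 to 0 without 1 array, and 1 maternal marker passed with array weights. Array weights called 4.79% of all genes and quantile normalization 2.18%, against 1.96% as reported. The causes were not tested. The median of the members ran from −0.07 without array B to −0.0026 without array C. *gnu* and *Dna2* kept their direction in all 15 alternatives. Of 24 named members, 5 that had not passed changed sign in at least 1: *barr*, *glu*, *Mcm6*, *RnrL* and *rux*. Among the others, *Orc5* ran from 0.04 without Duke probes to 0.25, *fog* from 0.12 without array A to 0.43 without C, *sub* from 0.05 without B to 0.23, and *Mcm3* from −0.21 without Duke probes to −0.08. Averaging clones first and leaving out Duke probes were chosen after the data were seen.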

Other observations

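Probes that name a member beside another gene stood outside the comparisons. Clone SD13982, listed for *E2f1* and *CG5390*, had 0.26, 1.07 and 0.49 in the order A, B, C (mean 0.61 ± 0.42, SD, n = 3; limma adjusted p = 0.131). Its re-amplified spot had −0.13, −0.08 and −0.05 on the same arrays, with no overlap with the first spot. LD06546, listed for *RnrL* and *MED26*, averaged −0.04, and LP04773, listed for *Cdk2* and *Fbp1*, −0.08. These values name no gene.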
